A study of Mus musculus with 6 samples.

Results

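The genes described here are 7 members of the renin-angiotensin system: the receptors Agtr2 and Agtr1a, the precursor Agt, the peptidases Ace, Lnpep and Enpep, and the prorenin receptor Atp6ap2. They were taken by name from the 18193 genes with a probe set of 1 gene symbol. The members were chosen from knockout and wild type levels on these same arrays, the high Agtr2 reading among them, so the members' knockout and wild type values are given as a description without p-values. Of the 7, 6 were measured, and Lnpep was not analysed here. RNA came from 6 clones of spontaneously immortalized mouse embryonic fibroblasts, 1 array per clone. The clones lettered E, H and J came from FHL2-/- mice and are written KO-E, KO-H and KO-J here, and those lettered E, F and I came from wild type (WT) mice and are written WT-E, WT-F and WT-I. Where 3 levels are given for each genotype they follow that order. The labels name no treatment, age, strain or shared allele, and each array stands for 1 clone. FHL2 is an adaptor protein of LIM domains that binds transcription factors and integrins, and the arrays set cells that lack it beside cells that have it.

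In the renin-angiotensin system, renin cuts angiotensinogen, the product of Agt, to angiotensin I, and angiotensin-converting enzyme (Ace) trims that to the active peptide angiotensin II. The AT1 receptor (Agtr1a in rodents) couples to Gq and raises blood pressure, cell growth and matrix production, while the AT2 receptor (Agtr2) is abundant in fetal mesenchyme, declines after birth and often opposes AT1. Aminopeptidase A (Enpep) shortens angiotensin II to angiotensin III, insulin-regulated aminopeptidase (Lnpep) binds angiotensin IV, and Atp6ap2 binds prorenin and is also an accessory subunit of the vacuolar proton pump.

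The sequence upstream of Agtr2 is shown because that gene had the largest difference of the members, and those of Enpep and Atp6ap2 because these were the members lower in all knockout clones. Agtr1a has no entry in the promoter table used. Each is the stretch of 250 bases before the gene's start on its own strand, from RefSeq on build GRCm38.p6, with matches to the motifs searched in capitals; Agtr2 lies at chrX:21484374-21484623 (plus strand), Enpep at chr3:129332750-129332999 (minus strand) and Atp6ap2 at chrX:12587509-12587758 (plus strand).
Agtr2: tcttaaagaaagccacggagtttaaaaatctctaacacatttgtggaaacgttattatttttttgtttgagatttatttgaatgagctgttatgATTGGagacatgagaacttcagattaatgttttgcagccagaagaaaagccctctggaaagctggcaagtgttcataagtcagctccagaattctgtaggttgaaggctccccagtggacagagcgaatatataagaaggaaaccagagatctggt
Enpep: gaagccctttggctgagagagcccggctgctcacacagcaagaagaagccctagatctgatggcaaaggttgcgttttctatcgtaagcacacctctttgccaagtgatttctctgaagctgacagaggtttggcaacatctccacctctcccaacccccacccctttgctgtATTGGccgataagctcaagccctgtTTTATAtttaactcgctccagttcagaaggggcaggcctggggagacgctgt
Atp6ap2: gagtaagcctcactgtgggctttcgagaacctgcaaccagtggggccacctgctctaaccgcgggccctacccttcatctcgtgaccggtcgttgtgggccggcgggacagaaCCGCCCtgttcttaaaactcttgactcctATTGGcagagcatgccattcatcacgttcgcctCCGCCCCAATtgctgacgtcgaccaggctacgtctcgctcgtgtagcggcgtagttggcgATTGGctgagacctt

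The searched letters, on both strands, were the TATA box TATAAA, the AP-1 site TGANTCA, the cAMP response element TGACGTCA, the E-box CACGTG, the CCAAT box, the GC box GGGCGG, the TCF/LEF core TCAAAG and, by name alone, the CArG box. The Agtr2 stretch held 1 CCAAT match on the reverse strand and no exact match to the others. The stretch also held the letters tatataag, a near match to TATAAA that the exact search did not count. It was 38.4% G and C with 3 CpG dinucleotides, against medians of 52.4% and 6 over all 32851 such stretches. The Atp6ap2 stretch was 59.2% G and C with 20 CpG dinucleotides, and held 3 CCAAT and 2 GC box matches, with 1 CCAAT overlapping a GC box by 1 letter. The Enpep stretch held 1 TATAAA match, 52 bases before the start, and 1 CCAAT match, both on the reverse strand. Of all such stretches, 12.37% held the TATA box, 33.85% the CCAAT box, 32.74% the GC box, 6.749% the AP-1 site, 1.546% the cAMP response element, 6.021% the E-box, 13.83% the TCF/LEF core and 1.467% a CArG box. These matches describe letters only and are no evidence of binding.

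Levels are log2 intensities made with the array summary method RMA, so 1 unit is a doubling, and levels of different probe sets can be set beside each other only roughly, since probes differ in brightness. Differences are knockout minus wild type with the standard error (SE) of a limma fit over all genes; n was 3 clones per genotype throughout. The labels call the samples of a genotype biological replicates but tie none to an embryo of its own, so errors and p-values measure the spread between clones. With 6 arrays precision is limited (median SE over genes 0.14). Knockout arrays had slightly higher medians (4.52 to 4.54, against 4.44 to 4.46 for wild type), while the median difference over all genes was 0.04. Fhl2 itself was 6.01, 6.44 and 6.57 (knockout) and 9.88, 8.57 and 9.64 (wild type) (-3.02, SE 0.35, adjusted p = 0.00400); where its probe set lies relative to the deleted part is not stated in these sources. By that rough measure, all 11 fibroblast markers were at or above the median gene level of 5.92. Of the endothelial markers 0 of 6 were, and of the leukocyte, epithelial and muscle markers 1 of 6 each; 5 of 8 smooth muscle and 2 of 5 neural markers were. Of the fibroblast markers 3 were higher in the knockout (Lum by 4.81, Dcn by 2.04 and Pdgfra by 1.76) and 2 were lower (Thy1, -1.34, and Pdgfrb, -0.64). Some mean marker levels moved with genotype: mean endothelial marker level was 4.06 to 4.57 among knockout clones but 3.42 to 3.80 among wild type clones, neural 4.79 to 5.45 against 5.66 to 5.98, and muscle 3.26 to 3.50 against 3.72 to 4.24. Single genes carried most of these shifts. Tek differed by 4.27, and Cdh5, Pecam1, Vwf, Tie1 and Kdr by 0.37, 0.25, 0.02, -0.17 and -0.30. Of the muscle markers Tnnt2 differed by -3.98. Of the neural markers Tubb3 differed by -3.20 and Nes by -0.81, while Map2, Sox10 and Sox2 differed by 0.53, 0.13 and 0.04. Mean fibroblast, smooth muscle, leukocyte and epithelial marker levels were 11.4 to 11.7, 6.53 to 8.62, 4.21 to 4.52 and 4.15 to 4.29 in knockout clones and 10.5 to 11.5, 7.81 to 8.50, 4.11 to 4.18 and 4.20 to 4.54 in wild type clones. Foxd1, the 1 juxtaglomerular marker measured, read 5.02 to 8.23 in knockout clones against 2.68 to 3.27. The part of these markers in the results below was not tested. In RNA from whole cultures, fewer cells of a type and less RNA per cell cannot be told apart.

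The AT2 receptor gene Agtr2 stood far above the other members in its difference. Its level was 10.45, 9.54 and 11.64 in the knockout, against 3.34, 5.43 and 3.47 (wild type). Every knockout clone lay at least 4.11 above the highest wild type clone, WT-F, which itself stood about 2 units above the other wild type clones. The knockout mean was 10.54 ± 1.06 and the wild type mean 4.08 ± 1.17 (SD, n = 3), a difference of 6.47 (SE 0.72), or 88.4-fold. It ranked 4 of 18193 genes from the highest difference down. Among all genes the knockout mean stood at percentile 97.1 and the wild type mean at percentile 31.4, so the wild type readings of WT-E and WT-I lay in the low part of the scale and the size of the fold is not exact. With 1 clone left out the difference ran from 5.92 (without KO-J) to 7.14 (without WT-F).

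The AT1 receptor gene Agtr1a was also higher in every knockout clone, by a smaller amount. It read 5.95, 6.14 and 6.64 (knockout) and 5.06, 4.84 and 4.38 (wild type). The groups did not overlap and lay 0.89 apart. The means were 6.24 ± 0.36 and 4.76 ± 0.35 (SD, n = 3), a difference of 1.49 (SE 0.24), or 2.80-fold, with a range of 1.29 to 1.63 when 1 clone was left out. Both receptors read highest in KO-J. Among wild type clones their order differed, as Agtr2 was highest in WT-F and Agtr1a in WT-E.

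**Figure D1:**
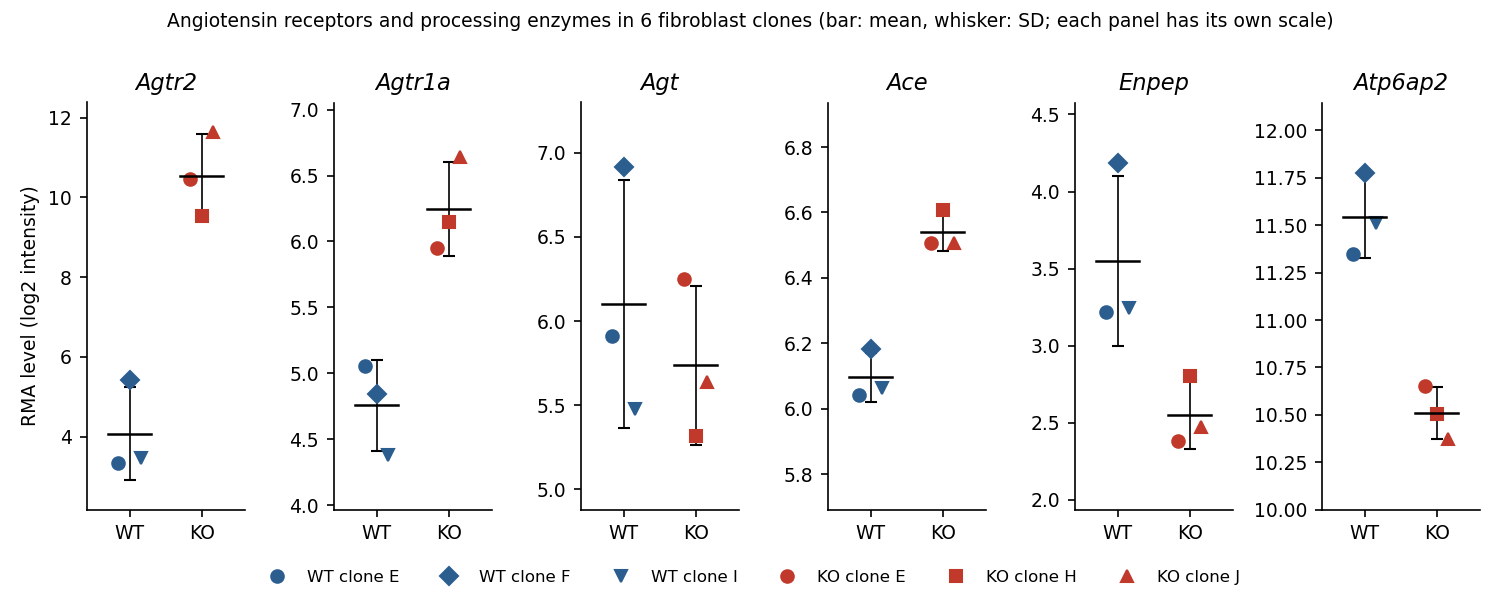
RMA level (log2 intensity, 1 scale per panel) of the 6 measured members in each clone, wild type (WT) in blue and FHL2 knockout (KO) in red; the bar is the mean and the whisker the SD of 3 clones. The groups overlap for Agt alone, and WT-F is the highest wild type clone in every panel except Agtr1a.

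Agt, which encodes the precursor angiotensinogen, did not separate by genotype. It read 6.25, 5.32 and 5.64 (knockout) and 5.91, 6.92 and 5.48 (wild type). The groups overlapped, and the wild type clones spanned more than the knockout clones (1.44 against 0.93). The means were 5.74 ± 0.47 and 6.10 ± 0.74 (SD, n = 3), a difference of -0.37 (SE 0.41), which was smaller than its SE. Without WT-F it was 0.04, so even its sign rested on that clone.

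Ace, which makes angiotensin II from angiotensin I and also breaks down bradykinin, differed little and with little spread. Its leading probe set read 6.51, 6.61 and 6.51 (knockout) and 6.04, 6.18 and 6.06 (wild type). All knockout clones lay above all wild type clones, 0.32 apart. The means were 6.54 ± 0.06 and 6.10 ± 0.08 (SD, n = 3), a difference of 0.44 (SE 0.10), or 1.36-fold. The second Ace probe set read 6.35, 6.30 and 6.43 against 6.13, 6.11 and 6.20. It also kept the groups apart, but its difference was smaller, at 0.21 (SE 0.09). The leading probe set has one of the suffixes _x_at, _s_at and _a_at, which mark probes that several transcripts can share (probe sets of shared sequence), and the other does not.

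Enpep, the aminopeptidase that removes the first residue of angiotensin II, read low throughout. It was 2.38, 2.80 and 2.47 (knockout) and 3.22, 4.18 and 3.25 (wild type). All knockout clones lay below all wild type clones. The means were 2.55 ± 0.22 and 3.55 ± 0.55 (SD, n = 3), a difference of -0.999 (SE 0.28). Without WT-F it was -0.68. The knockout mean lay at percentile 2.42 and the wild type mean at percentile 22.4 of all genes, so this is a difference between readings near the bottom of the scale.

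Atp6ap2, the prorenin receptor and proton pump subunit, read high in every clone and lower in the knockout. Its leading probe set read 10.65, 10.50 and 10.37 (knockout) and 11.35, 11.78 and 11.51 (wild type). The groups lay 0.70 apart. The means were 10.51 ± 0.14 and 11.55 ± 0.22 (SD, n = 3), a difference of -1.04 (SE 0.14), a 2.05-fold lower level in knockout clones. The other probe sets of the gene gave -1.02 (SE 0.15) and -1.09 (SE 0.16), and every fit without 1 clone gave -0.92 to -1.13. Both group means stood at or above percentile 96.9 of all genes.

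Set side by side, the difference of Agtr2 (6.47) was opposite in sign to those of Enpep (-0.999) and Atp6ap2 (-1.04) and several units above that of Agtr1a (1.49). Of the 6 measured members, 5 had groups that did not overlap, against 38.9% of all genes. At a limma adjusted p under 0.05, 3 members were higher (Agtr2, Agtr1a and Ace) and 1 lower (Atp6ap2), against 19% of all genes in either direction, 9.04% higher and 10% lower. The members were chosen with this comparison known, and nothing is read from these counts. Ace was not among those members without any 1 clone other than KO-H, nor with a trended robust variance prior or without probe sets of shared sequence. Enpep joined them without KO-H, with median centring of arrays and with array weights.

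**Figure D2:**
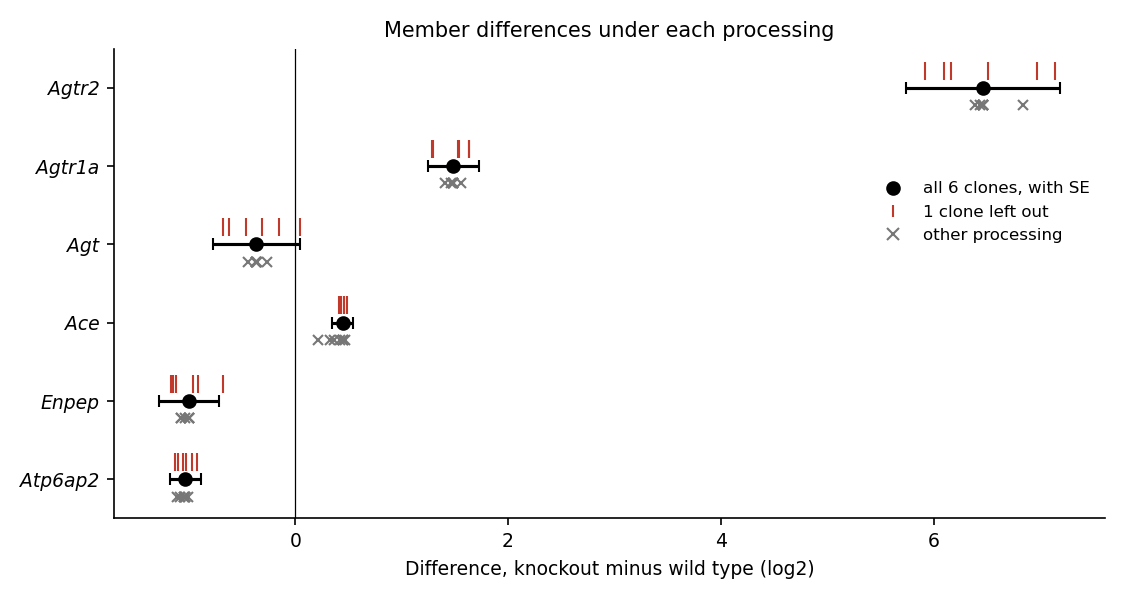
Difference of each measured member (log2, knockout minus wild type): the black point is the value over all 6 clones with its SE, red ticks are the values with 1 clone left out and grey crosses those under other processing. Agtr2 stays between 5.92 and 7.14, and the Agt values alone reach across 0.

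WT-F gave the highest wild type reading of 5 of the 6 members (Agtr2, Agt, Ace, Enpep and Atp6ap2), while over all genes it was highest in 37.7%. For knockout clones another measure was taken, the clone farthest from the median of its group in either direction. KO-E, KO-H and KO-J each lay farthest from that median in 2 members. Over all genes KO-H did so in 48.0%. KO-H also read 9.82 for Xist, the RNA that silences an X chromosome in female cells, against 4.69 to 5.11 in the other clones, and 2.92 for the Y-linked Eif2s3y against 7.47 to 8.79. Y-linked Kdm5d read 2.34 in KO-H and 6.50 to 7.72 elsewhere, and Uty 3.96 against 5.40 to 6.38. Agtr2 and Atp6ap2 are X-linked. In KO-H Agtr2 was the lowest of the knockout clones and Atp6ap2 lay between the other 2, and without this clone their differences were 6.97 and -1.03. Without WT-E, whose deposited values carry more decimals than the rest, they were 6.10 and -1.13.

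The genes beside Agtr2 on the X chromosome did not share its high readings. In the GRCm38.p6 gene order, the nearest 5 measured genes on each side were Uxt, A230072C01Rik, Zfp182, 4930453H23Rik and Gm5124 before it and Slc6a14, Ppp1r2-ps7, Klhl13, Wdr44 and 1700040G22Rik after it. Of these 10, 0 rose, 2 fell and 8 did not pass, against 19% of all genes past the threshold, with differences from -1.17 to 0.21 and a median of -0.09. The genes that fell were Uxt, a prefoldin-like protein (-1.17, SE 0.24, adjusted p = 0.0212), and Wdr44, a Rab11 effector (-0.94, SE 0.20, adjusted p = 0.0231). Neither passed on leaving out KO-E, KO-J, WT-E or WT-F (adjusted p = 0.0570 to 0.0756 for Uxt and 0.0612 to 0.0873 for Wdr44), and Wdr44 moved to -0.56 with its probe sets averaged. Slc6a14, an amino acid transporter and the next gene after Agtr2, differed by 0.01 (SE 0.11, adjusted p = 0.956).

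Around each other member, 1 to 3 of the 10 neighbours passed, against 19% of all genes (9.04% higher and 10% lower). With counts this small, nothing is read from their direction. Among the 10 neighbours of Atp6ap2, 2 fell and 0 rose (median -0.05, range -2.26 to 0.16), and among those of Agtr1a, on chromosome 13, 1 fell and 0 rose (median -0.25, range -1.51 to 0.39). Around Agt on chromosome 8, 3 fell and 0 rose (median -0.18, range -1.17 to 0.06), and around Enpep on chromosome 3 also 3 and 0 (median -0.17, range -1.20 to 0.33). Around Ace on chromosome 11, 2 rose and 0 fell (range -0.54 to 0.78), and the median of 0.46 was close to the difference of Ace itself. Each of these ranges reached a difference at least as large in size as that of the member itself, for Agtr1a only in the opposite direction to its own.

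**Figure D3:**
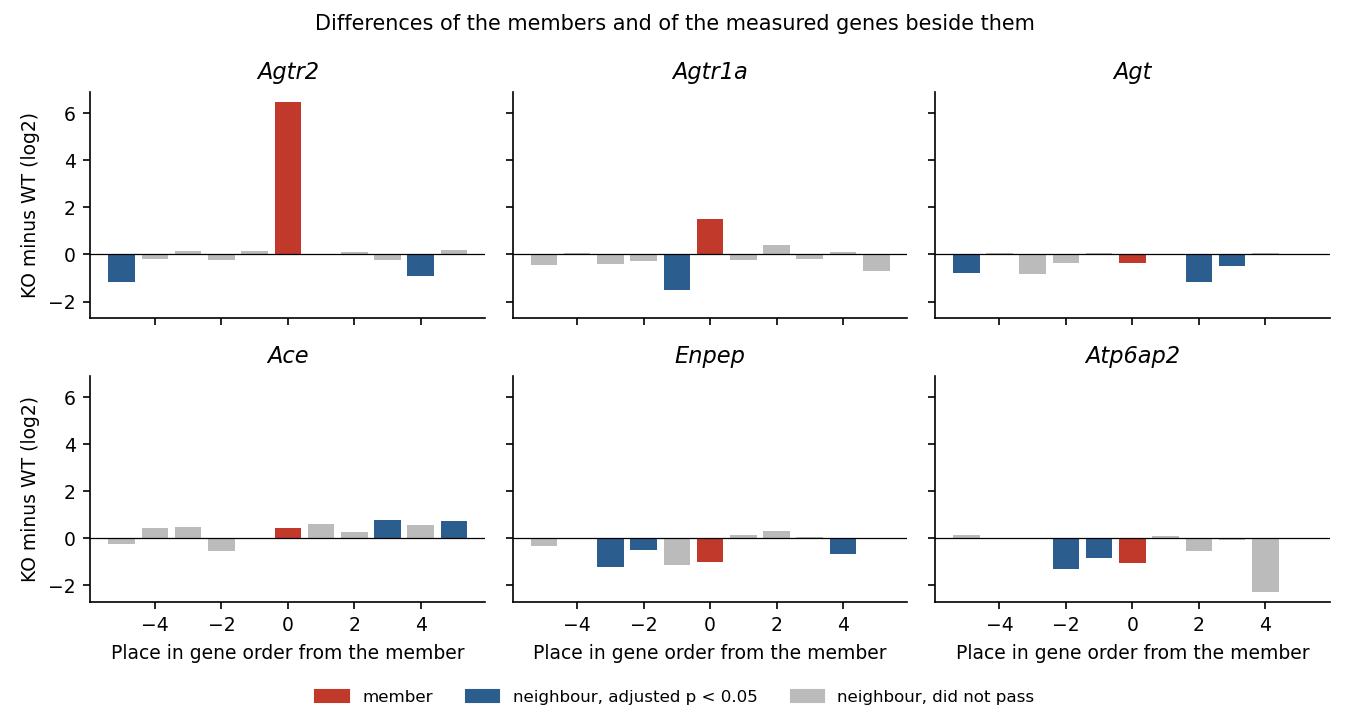
Difference (log2, knockout minus wild type) of each member in red and of the 5 measured genes on each side, by place in the chromosomal gene order; blue neighbours passed an adjusted p of 0.05 and grey ones did not. Agtr2 stands alone at 6.47 among neighbours between -1.17 and 0.21.

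Likeness of pattern was measured as the root mean square difference of log2 levels over the 6 arrays after each gene's mean was subtracted. Nearest to Agtr2 were Scara5, a ferritin receptor (0.86), Egfl6, a secreted matrix protein (0.96), Ifi202b, an interferon-inducible protein (0.999), Lum, the proteoglycan lumican (1.02), and Olfml1, an olfactomedin-like protein (1.03). In all 5 genes, as in Agtr2, WT-F read highest of the wild type clones, most clearly in Lum, at 8.58 against 5.75 and 4.63 in WT-E and WT-I. Scara5, Ifi202b, Lum and Olfml1 were lowest among knockout clones in KO-H, as was Agtr2, while Egfl6 was lowest in KO-E. Nearest to Agtr1a were Calhm2 (0.16), Ap4s1 (0.16) and Rhoj, a small GTPase (0.17). Nearest to Agt were Rnf24 (0.20), Bcl2, an inhibitor of apoptosis (0.21), and Fbln7 (0.21). Nearest to Enpep were Fibin (0.12), Tifa (0.13) and Antxr2, an anthrax toxin receptor (0.13), and Tifa is also one of the 5 measured genes on one side of Enpep. Nearest to Atp6ap2 were Wdtc1 (0.07), Rbpj, the DNA-binding factor of Notch signalling (0.08), and Kmt5a, a histone methyltransferase (0.09). Ace spanned less than 1 unit and was given no such genes.

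**Figure D4:**
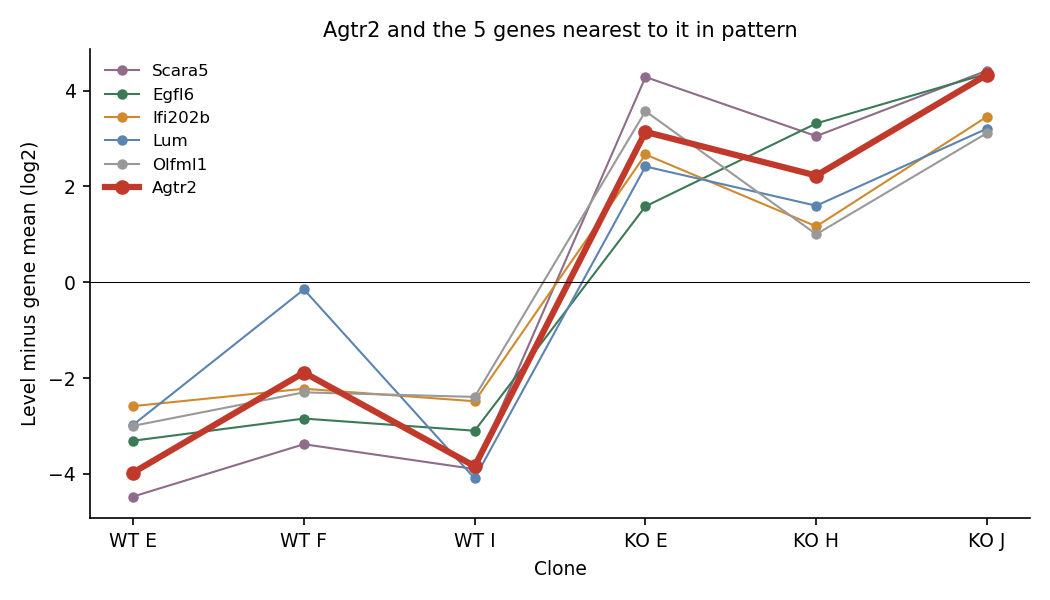
Level minus each gene's own mean (log2) in the 6 clones for Agtr2 (thick red) and the 5 genes nearest to it; lines only join the points of a gene, and clones have no order. All 6 genes lie above their mean in the knockout clones and below it in the wild type clones, and WT-F is the highest wild type clone for each of them. The 5 genes were picked for this likeness on the same arrays.

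Among 24 measured genes of 28 others of the renin-angiotensin and kinin systems, 2 rose, 2 fell and 20 did not pass. The share past the threshold was 16.7% against 19% of all genes, with a median of 0.08 against 0.04 over all genes. Both rises were large and were of cell surface peptidases that cleave angiotensin peptides. Anpep, aminopeptidase N, which shortens angiotensin III, read 6.77, 8.43 and 7.22 (knockout) and 4.19, 3.89 and 4.18 (wild type). It rose by 3.39 (SE 0.41, adjusted p = 0.00424) and passed in every fit without 1 clone. Its probe set has the suffix _a_at, so Anpep was absent from the fit without probe sets of shared sequence. Mme, neprilysin, which cuts angiotensin I to shorter vasodilating peptides, read 8.74, 5.96 and 8.26 (knockout) and 3.41, 3.35 and 4.33 (wild type). It rose by 3.95 (SE 0.73, adjusted p = 0.0146), a change that no longer passed on leaving out KO-J (0.0561), WT-E (0.0639) or WT-F (0.0566). The groups did not overlap in either gene, but KO-H was the highest knockout clone for Anpep and the lowest for Mme.

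The falls in that list were smaller. Atp6ap1, the other accessory subunit of the proton pump, fell by 0.86 (SE 0.17, adjusted p = 0.0189), a change that no longer passed on leaving out any clone but KO-H (0.0566 to 0.0674). Ctsa, the lysosomal carboxypeptidase cathepsin A, fell by 0.84 (SE 0.21, adjusted p = 0.0393). It no longer passed on leaving out KO-E, KO-J, WT-F or WT-I (0.0515 to 0.123), and the value was -0.43 with its probe sets averaged (adjusted p = 0.123). The remaining receptors, singled out after their values were seen, did not pass: Agtr1b, the second rodent AT1 gene, differed by 0.18 (SE 0.12), Mas1 by -0.13 (SE 0.10), and the kinin receptors Bdkrb1 and Bdkrb2 by 0.70 (SE 0.50) and -0.03 (SE 0.11). All of them read below the median gene level. Knockout and wild type means were 3.16 and 2.98 (Agtr1b), 2.38 and 2.52 (Mas1), 4.89 and 4.20 (Bdkrb1) and 3.84 and 3.88 (Bdkrb2). The receptor-binding proteins Agtrap, Mtus1 and Zbtb16, also singled out later, differed by -0.14 (SE 0.11), 0.03 (SE 0.40) and -0.17 (SE 0.18). The count of the list was 2 without KO-E, WT-E or WT-I, 1 without KO-J or WT-F and 4 without KO-H. The other genes of the list, among them the renin genes Ren1 and Ren2, were not analysed here.

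The M1 aminopeptidases are the zinc peptidase family to which Enpep and Lnpep belong. Enpep and Lnpep were not counted in this list. The list held 1 rise, that of Anpep, and 0 falls among 9 measured genes, 11.1% against 19% of all genes (median 0.03). Erap1, which trims peptides in the endoplasmic reticulum, differed by -0.73 (SE 0.22, adjusted p = 0.0681), or by -0.48 without WT-I, and passed with median centring of arrays (adjusted p = 0.0496), over the more highly expressed genes alone (0.0488) and with array weights (0.0470). Npepps, a cytosolic aminopeptidase, differed by 0.47 (SE 0.16, adjusted p = 0.0838), or by 0.30 with its probe sets averaged, and passed without WT-I (0.0367). Rnpepl1 differed by 0.32 (SE 0.16, adjusted p = 0.228). Anpep stood alone in this family, by more than 2 units, in the size of its difference. Without probe sets of shared sequence Anpep was not measured, and of the 8 genes left 1 fell and 0 rose.

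Most subunits of the vacuolar proton pump, of which Atp6ap2 is an accessory part, lay lower in knockout clones (17 of 21 below 0). Atp6ap2 itself was not counted in this list. Of 21 measured subunits, 10 fell, 0 rose and 11 did not pass, so 47.6% passed against 19% of all genes, and the median was -0.55 against 0.04 over all genes. More highly expressed genes pass more often. Among genes at or above the median gene level, 10 of 15 subunits passed, beside 3142 of all 9097 such genes. Atp6v1c1, of the stalk that joins the pump's membrane and cytosolic parts, read 9.23, 9.32 and 9.12 (knockout) and 10.53, 10.44 and 10.51 (wild type), and fell by 1.27 (SE 0.10, adjusted p = 0.00157). Tcirg1, the a3 membrane subunit of osteoclast and lysosomal pumps, fell by 1.06 (SE 0.13, adjusted p = 0.00475) and Atp6v1f by 0.69 (SE 0.12, adjusted p = 0.0122). These 3 passed in every fit without 1 clone, but the probe sets of Atp6v1c1 and Tcirg1 have the suffix _a_at, and that of Atp6v1f does not. Atp6v1h, a regulatory subunit, fell by 0.80 (SE 0.15, adjusted p = 0.0157), a change that no longer passed on leaving out KO-E (0.0543) or KO-J (0.0579), nor with its probe sets averaged (-0.32, 0.0676). The others that fell, besides Atp6ap1, were Atp6v0b, Atp6v0e, Atp6v1a, Atp6v1e1 and Atp6v1g1. The count was 4 without KO-E, KO-J or WT-F, 6 without WT-E or WT-I and 10 without KO-H. Without probe sets of shared sequence it was 5 of the 16 subunits left, beside 2920 of all 16591 genes left. The median was -0.50 to -0.59 in the fits without 1 clone, -0.32 with probe sets averaged and -0.23 without those probe sets. Atp6v0d2, the d subunit of osteoclasts, singled out later, read 3.06 to 3.20 in the knockout, against 3.14 to 3.27.

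Genes that carry or end AT1 signalling changed in both directions. Of 27 measured genes of 30, 8 fell, 3 rose and 16 did not pass, or 40.7% past the threshold against 19% of all genes, with a median of -0.17. Among genes at or above the median gene level, 11 of 22 in the list passed, beside 3142 of all 9097 such genes. Rgs2, which turns off Gq and is induced by angiotensin II, read 5.44, 5.47 and 4.999 (knockout) and 6.84, 7.80 and 7.12 (wild type), and fell by 1.95 (SE 0.27, adjusted p = 0.00635). Arrb1, a beta-arrestin that desensitises receptors, fell by 1.02 (SE 0.14, adjusted p = 0.00633) from a low level, and Gna12, a G protein alpha subunit, by 0.83 (SE 0.13, adjusted p = 0.00890). These 3 genes passed in every fit without 1 clone. Plcb4, a phospholipase C activated by Gq, fell by 2.02 (SE 0.35, adjusted p = 0.0122), a change that no longer passed on leaving out WT-E (0.0545), and by 1.35 with its probe sets averaged.

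The 3 rises in that list, picked out once their levels were known, were Gnaq, the Gq subunit itself, Prkca and Arhgef1. Gnaq rose by 0.74 (SE 0.13, adjusted p = 0.0130), a change that no longer passed on leaving out KO-J (0.0512) or WT-E (0.0554). Prkca, a protein kinase C, rose by 1.496 (SE 0.27, adjusted p = 0.0145), a change that no longer passed on leaving out WT-E (0.0593) or WT-F (0.0514). Arhgef1, a guanine nucleotide exchange factor, rose by 0.57 (SE 0.15, adjusted p = 0.0466); it no longer passed on leaving out any clone but KO-H (0.101 to 0.145), and the value was 0.27 without probe sets of shared sequence (0.206). The count of the list was 6 without KO-E, 7 without KO-J or WT-I, 4 without WT-E, 5 without WT-F and 14 without KO-H.

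Among 18 genes linked to AT2 signalling, 1 rose, 1 fell and 16 did not pass, or 11.1% past the threshold against 19% of all genes (median -0.11). Ppp2ca, the main catalytic subunit of phosphatase 2A, rose by 0.56 (SE 0.11, adjusted p = 0.0172), a change that no longer passed on leaving out KO-E, KO-J, WT-F or WT-I (0.0516 to 0.0664); the value was 0.34 with its probe sets averaged. Its sister subunit Ppp2cb fell by 0.53 (SE 0.12, adjusted p = 0.0260), but without probe sets of shared sequence it differed by 0.39 (adjusted p = 0.142) and with probe sets averaged by -0.07 (0.680). Nor did the fall pass on leaving out KO-E, KO-J, WT-E or WT-F (0.0680 to 0.0833). Gnai2, a Gi subunit that AT2 uses, differed by -0.43 (SE 0.14, adjusted p = 0.0865) and met the threshold on leaving out KO-H (-0.52, 0.0388) and with array weights (0.0326). Src differed by -0.39 (SE 0.14, adjusted p = 0.102). The count was 0 without KO-E, KO-J or WT-F, 1 without WT-E or WT-I, and 4 without KO-H.

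Transcripts that angiotensin II induces in fibroblasts and vascular cells changed in both directions. Of 22 measured genes of 25, 1 rose, 5 fell and 16 did not pass, or 27.3% past the threshold against 19% of all genes (median -0.46 against 0.04 over all genes). Among genes at or above the median gene level the shares were similar, 7 of 19 in the list and 3142 of 9097 in all. Hbegf, a growth factor that activates the EGF receptor, read 5.99, 7.01 and 6.28 (knockout) and 8.75, 8.73 and 9.01 (wild type), and fell by 2.40 (SE 0.26, adjusted p = 0.00344). Fosl1, an AP-1 subunit, fell by 1.61 (SE 0.24, adjusted p = 0.00760), and Rgs2 is shared with the AT1 list; these 3 passed in every fit without 1 clone. Ccl2, a monocyte chemokine, fell by 2.21 (SE 0.37, adjusted p = 0.0109), a change that no longer passed on leaving out WT-E (0.0507). The rise, named after its values were seen, was Pdgfa, a growth factor of mesenchymal cells, by 0.79 (SE 0.16, adjusted p = 0.0188), a change that no longer passed on leaving out KO-E (0.0622) or KO-J (0.0620). The fifth gene that fell, Myc, also named later, fell by 0.87 (SE 0.19, adjusted p = 0.0250), a change that no longer passed on leaving out KO-E (0.0705), KO-J (0.0669) or WT-E (0.0771).

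Fos, an AP-1 subunit, had the largest difference of the list, and it lay in the other direction from most of those that passed. It read 11.65, 12.12 and 12.79 (knockout) and 9.16, 11.08 and 7.16 (wild type), groups that did not overlap, and differed by 3.05 (SE 0.93, adjusted p = 0.0679). Fos was picked with its levels known.

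KO-H stood apart in several of these transcripts, which were singled out after their values were seen. Ccn2, a matricellular growth factor, read 12.23 in KO-H against 8.20 and 9.16 in KO-E and KO-J and 11.54 to 12.45 in wild type clones. Acta2, smooth muscle actin, read 13.25 against 10.71 and 10.46, with 12.86 to 13.24 in wild type clones, and Tgfb1 read 8.14 against 5.50 and 5.95, with 8.26 to 8.58 in wild type clones. None of the 3 passed (adjusted p = 0.193, 0.186 and 0.0978). Without KO-H the count of the list was 11 (10 lower and 1 higher), and it was 4 without KO-E, KO-J or WT-E. The list median was -0.18 without KO-E, -0.30 without KO-J and -0.29 without probe sets of shared sequence. The other genes of the list were not analysed here.

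**Figure D5:**
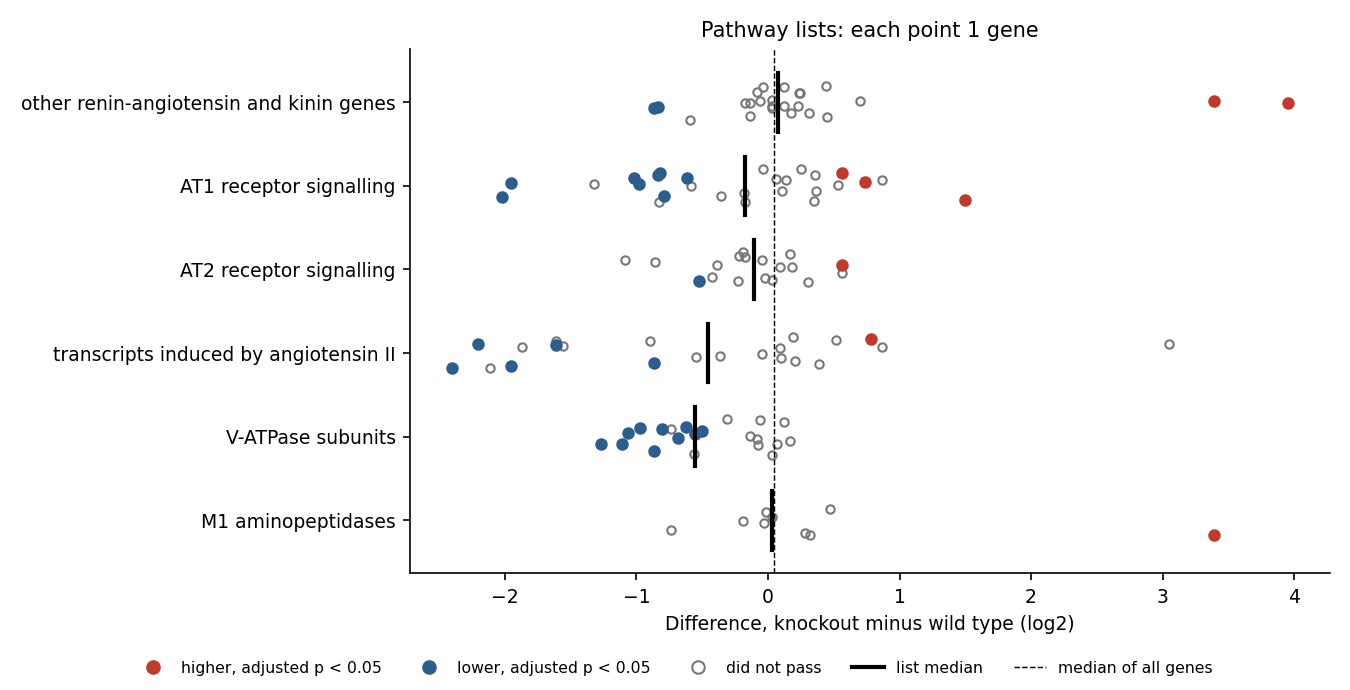
Difference (log2, knockout minus wild type) of every measured gene of the 6 pathway lists: red points rose and blue points fell at an adjusted p under 0.05, open points did not pass, the black bar is the list median and the dashed line the median of all genes (0.04). Proton pump subunits lie mostly to the left, with 10 falls and 0 rises, and Anpep and Mme stand at 3.39 and 3.95.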

How the data were processed

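RNA of each clone had been labelled with biotin and hybridised to 1 Affymetrix array of 45101 probe sets. The deposited values are log2 intensities that the authors made with RMA, per the submitters' processing notes (version not given in the sources used here). Titles gave genotype and clone letter. Left out were 64 control probe sets, 932 with several symbols and 9160 without a gene name. The probe set of highest mean stood for each gene. The genotype difference was fitted by lmFit and eBayes (limma 3.58.1, R 4.3.3) and adjusted by Benjamini-Hochberg over 18193 genes at 0.05. The fit was tested on simulated data. Sequences and gene order came from RefSeq tables of GRCm38.p6. Promoters were found for 6 of the 7 members. Members and lists were chosen with earlier results of these data known. Named genes are the members, up to 4 genes per list with the smallest p, the nearest patterns (5 for Agtr2, 3 for each other member spanning at least 1 unit) the neighbours of Agtr2, Fhl2, Xist and Y-linked genes. Alternatives were another variance prior, renormalization, centring, a level filter, averaged or fewer probe sets, array weights, every probe set, a 2-fold threshold and each clone left out. Figures used matplotlib 3.10.9 in Python 3.11.15.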

Additional observations from a re-analysis of the deposited data

How the results depend on the processing

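The signs of all measured member differences other than Agt held under every setting run. Ace moved by more than its spread between clones, to 0.37 with median centring of arrays, 0.33 with probe sets averaged and 0.21 without probe sets of shared sequence; the cause was not tested. The count of all genes past the threshold, 3464 in the fit described, was 1661 to 4750 without 1 clone, 6280 with every probe set tested and 1495 with a 2-fold change also required. Without 1 clone the list counts ran from 1 to 4 for other renin-angiotensin and kinin genes, 4 to 14 for AT1 signalling, 0 to 4 for AT2 signalling, 4 to 11 for transcripts induced by angiotensin II, 4 to 10 for proton pump subunits and 1 to 2 for M1 aminopeptidases. Over the more highly expressed genes alone, 2 of 12 other renin-angiotensin genes passed (0 higher, 2 lower). Of the AT2 signalling genes 2 of 10 passed (1 higher, 1 lower), and of the M1 aminopeptidases 1 of 6 (0 higher, 1 lower). Anpep and Mme lay below this level filter and were not among the genes counted. Of all 9097 genes that met the filter 3142 passed. Without probe sets of shared sequence, 2 of 21 other renin-angiotensin genes, 1 of 15 AT2 signalling genes and 5 of 16 pump subunits passed. With probe sets averaged, 1 AT2 signalling gene passed. Array weights gave 11 induced transcripts and 2 M1 aminopeptidases, and median centring 2 M1 aminopeptidases. Signs turned for Ppp2cb (0.39 without probe sets of shared sequence), Zfp182 (-0.0069 with probe sets averaged; -0.10 to 0.47 without 1 clone), Slc6a14 (-0.032 with quantile normalization again, -0.066 with median centring; -0.068 to 0.074 without 1 clone) and Fbln7 (-0.66 to 0.29 without 1 clone); the cause was not tested. No paired analysis was possible because the genotypes share 1 clone letter, E, which the labels do not give as a pairing. Levels near the bottom of the scale limit the sizes for Agtr2 in wild type clones and for Enpep.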
